A study of Mus musculus with 12 samples.

Results

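The data described here are the difference of the genotype effect of Sema4B between 2 cell fractions of the injured mouse cortex, gene by gene. Tables of the astrocyte and the immune fraction were joined on the gene identifier, and all 20776 genes present in both were members. The effect in each fraction was the log2 fold change of Sema4B-/- over Sema4B+/-, and the difference was the astrocyte effect minus the immune effect. A positive difference therefore means that the fold change was higher in the astrocyte fraction. Of the members, 16880 passed the filter on low counts and were tested, and the other genes were not.

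RNA was taken from brain cortex of mice, with 3 libraries in each of 4 groups: astrocyte fraction Sema4B-/-, astrocyte fraction Sema4B+/-, immune fraction Sema4B-/- and immune fraction Sema4B+/-. All mice had a cortical injury, and a square of 3 by 3 mm around it was removed 12 h later. Astrocytes were the cells that stuck to a plate coated against ACSA-2 (an astrocyte surface antigen), and immune cells those that stuck to a secondary-antibody plate or a CD45 plate. No uninjured or wild-type group was analysed here, so the heterozygote, which carries 1 altered allele, served as the control. Labels give neither the age nor the nature of the Sema4B allele, and they do not say whether libraries came from separate animals or whether both fractions came from the same animals. P-values then measure the spread between these libraries, which may be technical.

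Semaphorins are secreted or membrane-bound ligands that act mainly through plexin receptors and steer cell shape and migration by way of small GTPases and the cytoskeleton. Sema4B is one of the membrane-bound class. After a cortical wound, astrocytes turn reactive, microglia are activated and blood-borne myeloid cells enter. A contrast of this kind asks whether loss of the second allele moved a transcript differently in astrocytes and in immune cells.

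Libraries held 15426713 to 15993564 reads on genes in astrocyte Sema4B-/-, 13530229 to 14768224 in astrocyte Sema4B+/-, 13595280 to 15135960 in immune Sema4B-/- and 11111965 to 13190826 in immune Sema4B+/- libraries. Summed over 18 astrocyte markers, levels were 48586 to 62858 CPM (read counts scaled to a common library total) in astrocyte Sema4B-/- and 52613 to 56467 CPM in astrocyte Sema4B+/- libraries. They were 1479 to 2858 CPM in immune Sema4B-/- and 1675 to 2106 CPM in immune Sema4B+/- libraries. The fractions also held transcripts of other cells. Immune Sema4B-/- library 9, numbered as in its column head, stood apart with 543.5 CPM over 10 mural (pericyte and smooth muscle) markers, against 31.1 and 207 CPM in the other immune Sema4B-/- libraries and 33.4 to 135 CPM in the immune Sema4B+/- libraries. Xist and Y-linked transcripts, each at 10 CPM or more, were found together in 6 of the 12 libraries, namely in all 3 astrocyte Sema4B-/- libraries and in 1 library of each other group. Y-linked transcripts alone reached that level in astrocyte Sema4B+/- library 4, immune Sema4B-/- library 11 and immune Sema4B+/- library 3. Xist alone did so in astrocyte Sema4B+/- library 2, immune Sema4B-/- library 7 and immune Sema4B+/- library 1. The part of these transcripts in the results was not tested beyond a fit with a Y-linked score, given in the closing section.

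Sema4b itself (ENSMUSG00000030539, chromosome 7, 80186841 to 80226527, plus strand, GRCm38) gave only a limited check of the group labels, as the allele is not described. In the astrocyte fraction it stood at 44.9, 27.7 and 58.3 CPM in Sema4B-/- libraries, against 68.9, 111 and 61.0 CPM in Sema4B+/- libraries. In the immune fraction it stood at 5.38, 2.14 and 1.16 CPM in Sema4B-/- libraries, against 8.83, 6.06 and 7.91 CPM in Sema4B+/- libraries. Every Sema4B-/- library lay below every Sema4B+/- library of its fraction, and reads remained in all of them; which exons the allele alters is not given in the sources used here. The effect was -0.88 ± 0.39 (log2, SE) in the astrocyte fraction and -1.38 ± 0.45 in the immune fraction. These effects differed by 0.50 ± 0.59, with an adjusted p of 0.736 in edgeR's quasi-likelihood test with Benjamini-Hochberg adjustment. A difference between the amounts was not detected at this spread.

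No gene had a difference past an adjusted p of 0.05 in edgeR's quasi-likelihood test: 0 genes were higher and 0 lower (0.0% each), and the lowest adjusted p was 0.475. At an unadjusted p under 0.05, the difference was positive for 686 genes (4.06% of those tested) and negative for 1067 genes (6.32%), together 1753 genes (10.4%), so that 39.1% of them were positive. Without scaling factors, which shifted the median of all genes to -0.16, 10.2% of such genes were positive. Limma-voom called 0 genes at an adjusted p of 0.05, with 717 positive and 933 negative genes at an unadjusted p under 0.05. DESeq2 called 3 genes, all negative (0.0178%), namely Fry, Il34 and Cacna1c, with 726 positive and 1142 negative genes at an unadjusted p under 0.05. The values of single genes below are therefore descriptions that did not pass correction in the edgeR test. Over all genes tested, the median difference was 0.042 and 53.5% of the differences were positive.

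For most genes at an unadjusted p under 0.05, the immune effect was larger in size than the astrocyte effect. Among the 686 positive genes, 645 had an astrocyte effect above zero and an immune effect below it, 41 were below zero in both, and in 594 (86.6%) the immune effect was the larger. Among the 1067 negative genes, 933 had an astrocyte effect below zero and an immune effect above it, 128 were above zero in both and 6 below zero in both, and the immune effect was the larger in 964 (90.3%). Across all genes the immune effect was the larger in 71.6%. Its median size was 0.31, against 0.14 for the astrocyte effect. Taken by themselves, the astrocyte effect had an unadjusted p under 0.05 in 284 genes (1.68%), of which 68 were above zero (0.403%) and 216 below (1.28%). The immune effect did so in 3418 genes (20.2%), of which 1647 were above zero (9.76%) and 1771 below (10.5%). By edgeR, 0 genes were past an adjusted p of 0.05 in either fraction (0.0%). Replicates of the immune groups also spread more: the median SD of log2 CPM was 0.199 in astrocyte Sema4B-/-, 0.197 in astrocyte Sema4B+/-, 0.314 in immune Sema4B-/- and 0.262 in immune Sema4B+/- libraries. The median standard error of the difference was 0.287 over 12816 genes that reached 5 CPM in their highest group. The fit shared its estimate of spread among the 4 groups. Median standard errors over these genes were therefore nearly equal, 0.202 for the astrocyte and 0.203 for the immune effect. The counts of each fraction at an unadjusted p under 0.05 thus do not allow for the wider spread of the immune libraries.

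**Figure D1:**
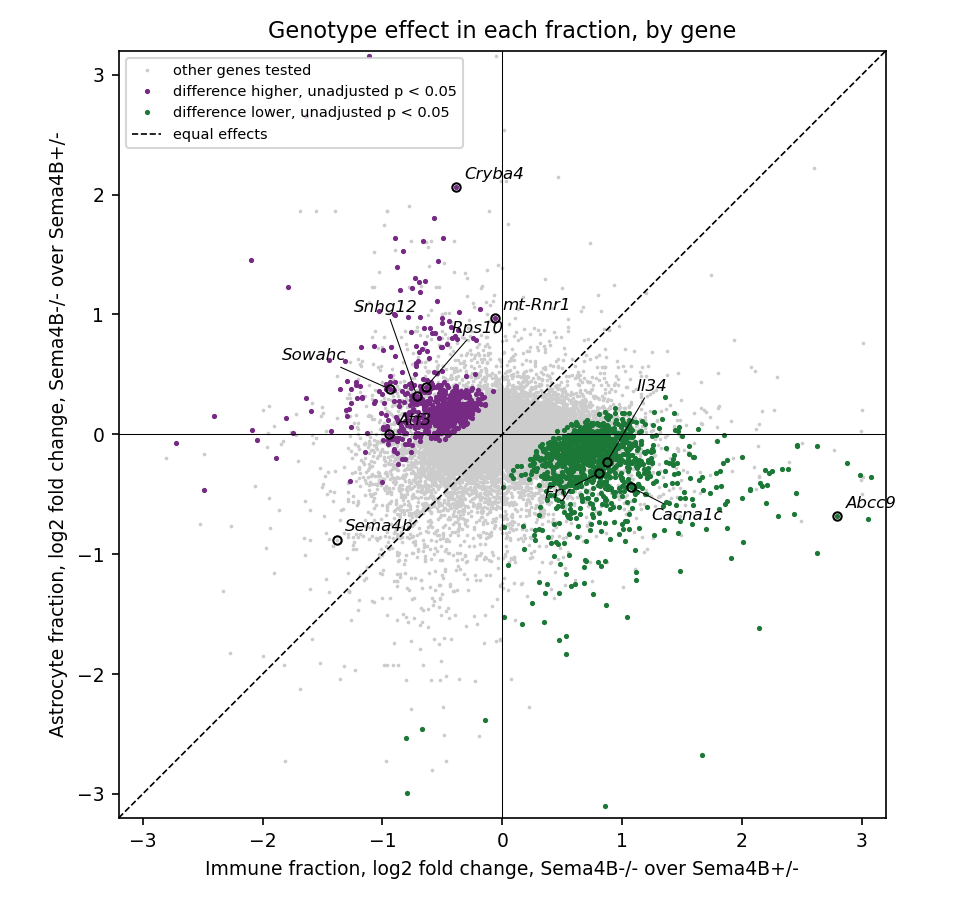
Each point is 1 of the genes tested, with its log2 fold change of Sema4B-/- over Sema4B+/- in the immune fraction on the x axis and in the astrocyte fraction on the y axis; colours mark the 686 positive and 1067 negative differences at an unadjusted p under 0.05, and 25 genes lie outside the axes. Coloured points spread along the x axis more than along the y axis, and Sema4b lies below zero on both.

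With 1 library left out, the counts at an unadjusted p under 0.05 changed, while the count past an adjusted p of 0.05 by edgeR was 0 in each of the 12 fits. Positive genes numbered 269 without astrocyte Sema4B+/- library 4 and 1081 without immune Sema4B+/- library 3, and negative genes 702 without astrocyte Sema4B-/- library 8 and 1591 without astrocyte Sema4B-/- library 10.

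**Figure D2:**
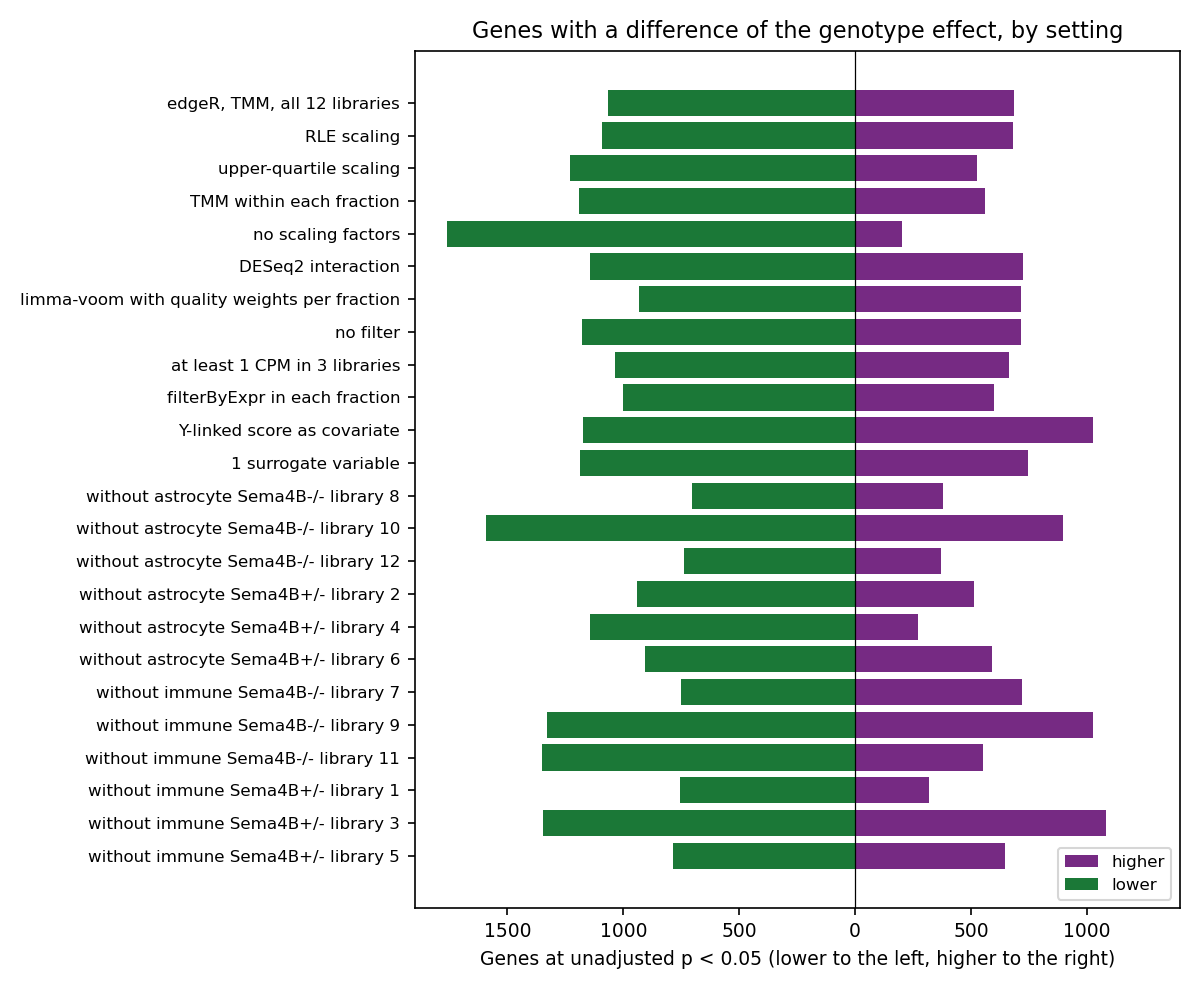
Number of genes with a positive (right) and a negative (left) difference at an unadjusted p under 0.05 under each setting of scaling, tool, filter, covariate or left-out library. The top bar is the edgeR fit with 686 positive and 1067 negative genes, and the bar without scaling factors has 200 and 1762.

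Effects of opposite sign were common, in 8745 of 16880 genes tested, but few genes had an unadjusted p under 0.05 in each fraction. Those genes numbered 62, whatever their signs. With an unadjusted p under 0.05 in each fraction, 8 genes (0.0474%) were above zero in the astrocyte fraction and below it in the immune fraction, and 13 genes (0.077%) showed the reverse. In levels, 80 genes (0.474%) had every astrocyte Sema4B-/- library above every astrocyte Sema4B+/- library and every immune Sema4B-/- library below every immune Sema4B+/- library, and 68 genes (0.403%) had the reverse order. Within 1 fraction alone, the genotypes did not overlap for 1841 genes (10.9%) in the astrocyte fraction and 3359 genes (19.9%) in the immune fraction.

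Among genes with a negative difference, Fry had the lowest p. It encodes a very large microtubule-associated protein (chromosome 5, 150118645 to 150497753, plus strand). Its level was 65.5, 72.0 and 66.5 CPM in astrocyte Sema4B-/- libraries, against 82.7, 81.6 and 91.2 CPM in astrocyte Sema4B+/- libraries. In the immune fraction it was 72.7, 52.3 and 62.6 CPM in Sema4B-/- libraries, against 36.1, 37.8 and 33.4 CPM in Sema4B+/- libraries. The genotypes overlapped in neither fraction, and their order was opposite. Fry differed by -1.13 ± 0.20 (SE), with an adjusted p of 0.475 by edgeR and of 0.00247 by DESeq2, from an astrocyte effect of -0.33 and an immune effect of 0.81.

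Il34 encodes interleukin 34, a ligand of the CSF1 receptor that keeps microglia alive and is made in the cortex mainly by neurons (chromosome 8, 110741829 to 110805924, minus strand). Astrocyte Sema4B-/- libraries had 29.1, 29.8 and 26.8 CPM and astrocyte Sema4B+/- libraries 31.3, 33.8 and 35.1 CPM. Immune Sema4B-/- libraries had 23.1, 20.4 and 18.0 CPM and immune Sema4B+/- libraries 10.9, 10.3 and 12.4 CPM. Again both fractions were without overlap and in opposite order, although the astrocyte effect was small (-0.23 ± 0.14, unadjusted p = 0.134). The difference was -1.10 ± 0.20, with an adjusted p of 0.475 by edgeR and of 0.00318 by DESeq2.

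Cacna1c encodes the pore subunit of an L-type voltage-gated calcium channel (chromosome 6, 118587240 to 119196418, minus strand). It had 16.1, 23.6 and 14.6 CPM in astrocyte Sema4B-/- libraries, against 23.1, 24.0 and 26.5 CPM in astrocyte Sema4B+/- libraries. It had 47.0, 32.9 and 28.0 CPM in immune Sema4B-/- libraries, against 17.2, 19.1 and 15.05 CPM in immune Sema4B+/- libraries. The genotypes overlapped in the astrocyte fraction and not in the immune fraction. Cacna1c differed by -1.51 ± 0.31, with an adjusted p of 0.475 by edgeR and of 0.025 by DESeq2.

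The other negative genes with the lowest p shared this shape. Ablim1, an actin-binding LIM protein, differed by -0.97 ± 0.21, Slc4a8, a bicarbonate transporter, by -1.07 ± 0.23, and Celsr2, a large cadherin of planar cell polarity, by -1.11 ± 0.24. Apc2, a relative of the Wnt pathway gene Apc found mainly in neurons, differed by -1.01 ± 0.23, Arhgef17, a guanine nucleotide exchange factor, by -0.96 ± 0.22, and Galnt17, a glycosyltransferase-family gene, by -1.18 ± 0.28. Each of these 6 had immune Sema4B-/- libraries all above the immune Sema4B+/- libraries, and of the 6 only Ablim1 also had astrocyte Sema4B-/- libraries all below.

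Mir124a-1hg, the host transcript of a copy of the neuronal microRNA miR-124, had genotypes that overlapped in neither fraction. It stood at 17.4, 27.1 and 15.8 CPM in astrocyte Sema4B-/- libraries, against 29.0, 35.3 and 43.1 CPM in astrocyte Sema4B+/- libraries. In the immune fraction it stood at 145, 121 and 122 CPM in Sema4B-/- libraries, against 111, 76.3 and 76.4 CPM in Sema4B+/- libraries. The order was that of Fry, below in the astrocyte and above in the immune fraction, and the difference was -1.39 ± 0.31 from effects of -0.83 and 0.56. Aff3, a nuclear protein of transcription elongation, and Slc44a5, a choline-transporter-like protein, had the same non-overlapping order, with differences of -1.23 ± 0.29 and -1.76 ± 0.42. Igsf9b, an adhesion protein of inhibitory synapses, differed by -1.25 ± 0.32 with overlap in the astrocyte fraction.

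Among genes with a positive difference, Rps10 had the lowest p (0.000458 unadjusted, adjusted p = 0.475 by edgeR). It encodes a protein of the small ribosomal subunit (chromosome 17, 27630418 to 27636669, minus strand). Its level was 17.3, 14.3 and 16.6 CPM in astrocyte Sema4B-/- libraries, against 12.1, 11.8 and 12.7 CPM in astrocyte Sema4B+/- libraries. In the immune fraction it was 21.8, 25.97 and 24.5 CPM in Sema4B-/- libraries, against 43.2, 30.9 and 38.1 CPM in Sema4B+/- libraries. The genotypes overlapped in neither fraction, in the order opposite to that of Fry, and the difference was 1.03 ± 0.22. Ribosomal protein genes have many near-identical pseudogene copies, so their counts are uncertain.

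Snhg12, a host transcript of small nucleolar RNAs, had 29.3, 25.3 and 30.4 CPM in astrocyte Sema4B-/- libraries, against 23.6, 21.4 and 22.9 CPM in astrocyte Sema4B+/- libraries. It had 38.4, 54.4 and 49.1 CPM in immune Sema4B-/- libraries, against 90.4, 62.2 and 80.2 CPM in immune Sema4B+/- libraries. Neither fraction overlapped, and the difference was 1.04 ± 0.24. Arhgap9, a GTPase-activating protein of blood cells, also had no overlap in either fraction, with a difference of 1.39 ± 0.35. Its astrocyte levels were low, at 1.70, 1.73 and 2.18 CPM in Sema4B-/- libraries and 1.20, 0.818 and 1.38 CPM in Sema4B+/- libraries.

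Sowahc, an ankyrin-repeat protein, differed by 1.31 ± 0.32 and Npl, which breaks down free sialic acid, by 0.98 ± 0.25. Rab3il1, an exchange factor for Rab GTPases, differed by 1.14 ± 0.30 and Stk17b, a serine/threonine kinase, by 1.14 ± 0.31. In these 4 genes the immune Sema4B-/- libraries all lay below the immune Sema4B+/- libraries while the astrocyte libraries overlapped. Sptssa, a subunit of the enzyme that starts sphingolipid synthesis, followed the same order with a difference of 0.90 ± 0.24. Nupr1, a stress-induced nuclear protein, had 206, 140 and 196 CPM in astrocyte Sema4B-/- libraries, against 146, 119 and 132 CPM in astrocyte Sema4B+/- libraries. It overlapped in both fractions and differed by 1.08 ± 0.29. Rgs10, a brake on G protein signalling that microglia express, had 103, 130 and 106 CPM in immune Sema4B-/- libraries, against 178, 131 and 160 CPM in immune Sema4B+/- libraries, with a difference of 0.87 ± 0.24.

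Cryba4, a lens crystallin, had the highest positive value of the genes named by p, at 2.45 ± 0.63. This value rests on few reads: the level was 0.567, 0.399 and 0.363 CPM in astrocyte Sema4B-/- libraries, against 0.160, 0.0744 and 0.0689 CPM in astrocyte Sema4B+/- libraries. Immune levels overlapped between genotypes, at 2.90 to 4.84 CPM in Sema4B-/- libraries and 4.26 to 6.46 CPM in Sema4B+/- libraries.

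**Figure D3:**
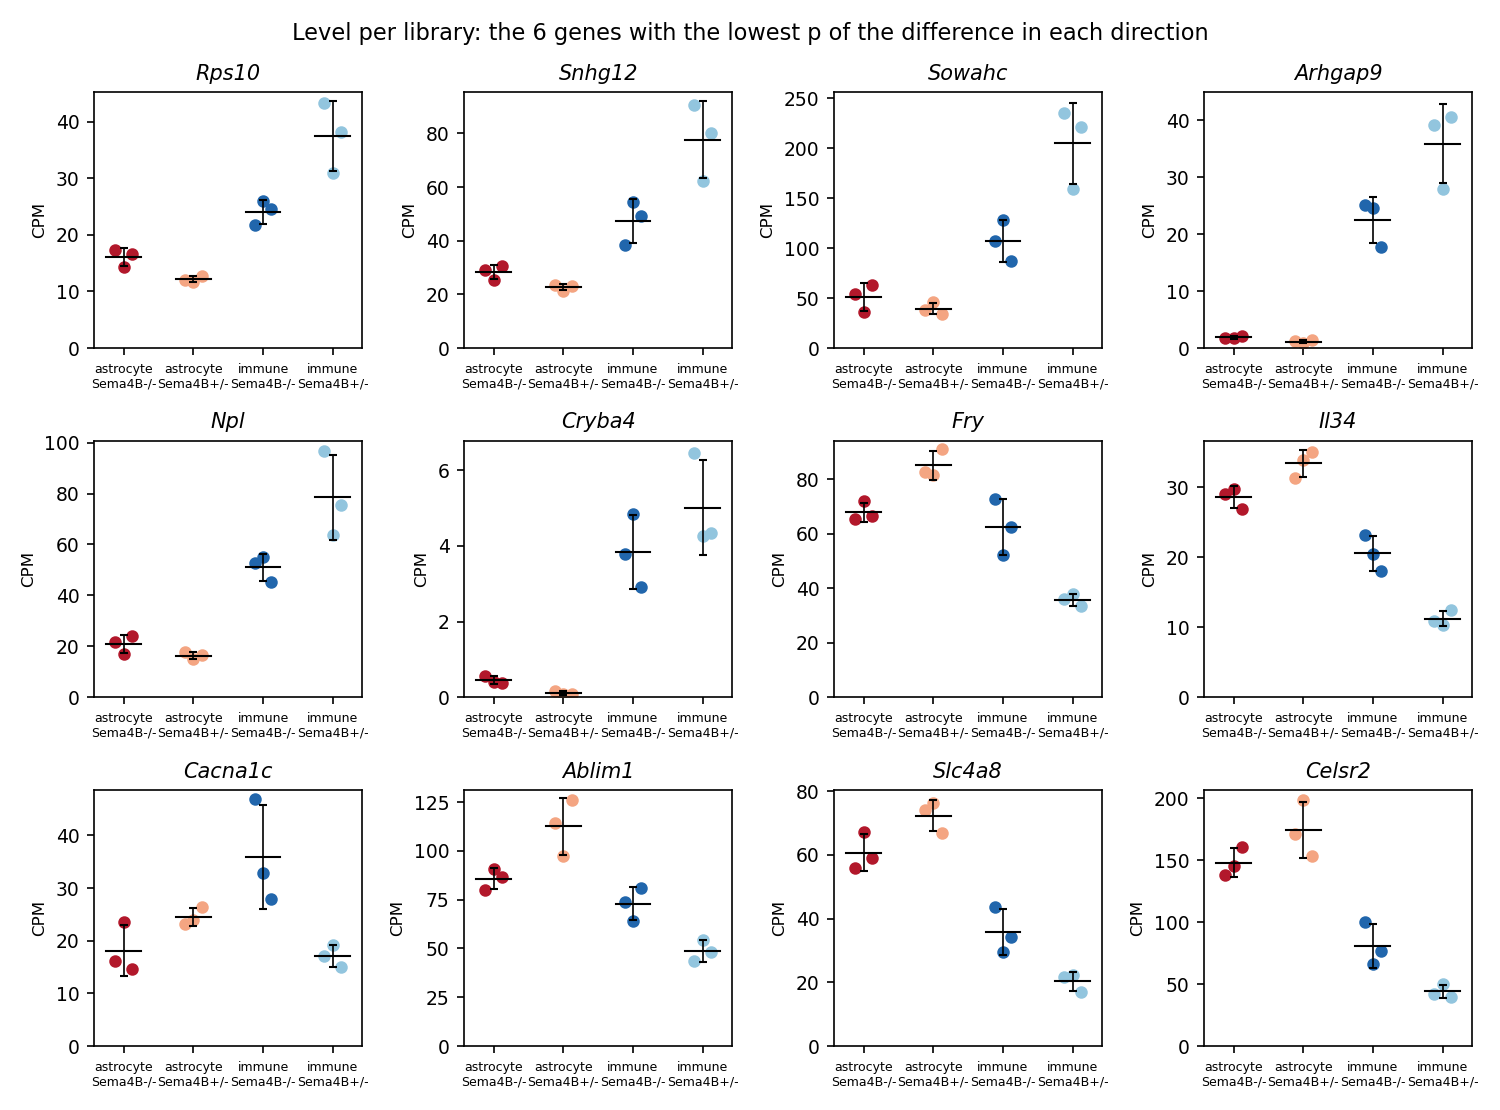
Scaled CPM per library for 12 genes, the 6 with the lowest p of the difference in each direction; points are libraries, bars are the mean and SD of 3 libraries, and each panel starts at 0. In Rps10 the astrocyte Sema4B-/- points lie above their Sema4B+/- points and the immune Sema4B-/- points below theirs, and in Fry both orders are turned round.

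Each list below can be set beside the shares over all genes tested. Of these, 53.5% had a positive difference, and 4.06% were positive and 6.32% negative at an unadjusted p under 0.05. Ribosomal protein genes leaned to positive differences. Of 25 genes, all had a positive difference, 16 had an unadjusted p under 0.05, and the median difference was 0.62, from a median effect of 0.21 in the astrocyte and -0.42 in the immune fraction. Rpl13, of the large subunit, had 16.1, 10.6 and 13.004 CPM in astrocyte Sema4B-/- libraries, against 11.2, 10.6 and 11.6 CPM in astrocyte Sema4B+/- libraries. It had 28.0, 36.4 and 28.6 CPM in immune Sema4B-/- libraries, against 61.2, 37.4 and 47.9 CPM in immune Sema4B+/- libraries. Only the immune libraries were without overlap, and the difference was 0.90 ± 0.29. All 25 stayed positive with any 1 library left out. The count at an unadjusted p under 0.05 then ran from 2 to 22, and it was 8 or fewer without astrocyte Sema4B-/- library 8 or 12, astrocyte Sema4B+/- library 4 or 6, immune Sema4B-/- library 7 or 11, or immune Sema4B+/- library 1.

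Heat shock proteins, the chaperones that refold damaged proteins, were positive in 12 of 12 genes, 5 of them at an unadjusted p under 0.05, with a median difference of 0.33. Transcription of many of them is driven by heat shock factor through heat shock elements, whose core can be written GAANNTTC, a word that reads the same on both strands. Of the 12 genes, 9 matched an entry in the RefSeq promoter table (GRCm38.p6), and 6 of those held the word within 250 bases before the gene start, against 2088 of 27025 genes (7.73%) in the whole table. Hspa1a, Hspa1b, Hspb1, Dnaja1, Hspd1 and Hspe1 held it, and Hsph1, Dnajb1 and Bag3 did not in this window. The 130 bases before the start are shown for the 3 genes of the list that held it and had the lowest p, 5′ to 3′ on the strand of the gene, with the word in capitals.
Hspe1 chr1:55088018-55088147 (plus strand): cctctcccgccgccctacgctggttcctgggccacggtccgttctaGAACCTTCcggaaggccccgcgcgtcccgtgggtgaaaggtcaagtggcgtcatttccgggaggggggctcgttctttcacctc
Hspa1a chr17:34972157-34972286 (minus strand): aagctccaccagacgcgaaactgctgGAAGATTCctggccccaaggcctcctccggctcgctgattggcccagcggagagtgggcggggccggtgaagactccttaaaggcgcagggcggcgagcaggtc
Hspa1b chr17:34959239-34959368 (minus strand): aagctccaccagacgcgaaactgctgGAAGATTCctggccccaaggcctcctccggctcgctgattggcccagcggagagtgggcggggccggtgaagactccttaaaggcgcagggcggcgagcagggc
The word begins 84 bases before the start of Hspe1 and 104 bases before the starts of Hspa1a and Hspa1b, which are near-identical neighbours whose reads may be split between them.

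Hspe1, the partner chaperonin of Hspd1 in mitochondria, had 43.5, 38.1 and 40.5 CPM in astrocyte Sema4B-/- libraries, against 34.8, 28.7 and 38.4 CPM in astrocyte Sema4B+/- libraries. It had 36.7, 49.8 and 39.9 CPM in immune Sema4B-/- libraries, against 57.8, 47.1 and 61.2 CPM in immune Sema4B+/- libraries. The genotypes overlapped in both fractions, and the difference was 0.65 ± 0.23. Hspa1a, an inducible HSP70, had 59.0, 99.4 and 135 CPM in astrocyte Sema4B-/- libraries, against 109, 34.1 and 78.7 CPM in astrocyte Sema4B+/- libraries. In the immune fraction it had 89.3, 155 and 125 CPM in Sema4B-/- libraries, against 255, 133 and 450 CPM in Sema4B+/- libraries. Both fractions overlapped, the spread within groups was wide, and the difference was 1.58 ± 0.64. The count of 5 was 3 or fewer without astrocyte Sema4B-/- library 12 (1 gene), astrocyte Sema4B+/- library 4 (0 genes) or 6, immune Sema4B-/- library 7, or immune Sema4B+/- library 1 or 5, and the median was 0.12 without scaling factors.

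Immediate early genes, the first transcription factors switched on by a stimulus, were positive in 14 of 17, 3 of them at an unadjusted p under 0.05, with a median of 0.52. Atf3, a stress-induced transcription factor, overlapped in the astrocyte fraction, at 80.2, 63.2 and 78.2 CPM in Sema4B-/- libraries and 93.6, 58.4 and 69.0 CPM in Sema4B+/- libraries. Immune Sema4B-/- libraries had 459, 583 and 388 CPM, all below the 962, 796 and 989 CPM of immune Sema4B+/- libraries, and the difference was 0.95 ± 0.30. Jun, a subunit of AP-1, had 416, 343 and 398 CPM in astrocyte Sema4B-/- libraries, against 405, 355 and 261 CPM in astrocyte Sema4B+/- libraries. It had 285, 380 and 170 CPM in immune Sema4B-/- libraries, against 477, 494 and 712 CPM in immune Sema4B+/- libraries, with overlap in the astrocyte fraction only and a difference of 1.19 ± 0.38. The median of the list was 0.33 without astrocyte Sema4B+/- library 6 and 0.27 without immune Sema4B-/- library 11. The count was 5, 7 and 6 genes without immune Sema4B-/- library 7, immune Sema4B-/- library 9 and immune Sema4B+/- library 3.

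Mitochondrially encoded genes had their larger median effect in the astrocyte fraction. Of 15 listed, 10 were in the tables and 9 were tested; all 9 differences were positive, 2 at an unadjusted p under 0.05, and the median of 0.42 came from 0.41 in the astrocyte and -0.065 in the immune fraction. The ribosomal RNA mt-Rnr1 had 2623, 1678 and 2137 CPM in astrocyte Sema4B-/- libraries, all above the 1419.6, 818 and 1050.6 CPM of astrocyte Sema4B+/- libraries. Its immune levels overlapped, at 539, 695 and 479 CPM in Sema4B-/- libraries and 784, 476 and 531 CPM in Sema4B+/- libraries, and the difference was 1.03 ± 0.38. As a share of all reads, mitochondrially encoded genes made up 7.16 ± 0.51% in astrocyte Sema4B-/- libraries, against 5.76 ± 1.06% in astrocyte Sema4B+/- libraries (SD, 3 libraries each). The shares were 3.17 ± 0.62% in immune Sema4B-/- libraries and 2.98 ± 0.29% in immune Sema4B+/- libraries. The difference of 1.22 percentage points had p = 0.215 in a two-sided exact permutation of genotypes within fractions (400 arrangements, smallest possible p 0.005). The list median was 0.21 without astrocyte Sema4B+/- library 4 and 0.28 without immune Sema4B+/- library 1, and 0 genes had an unadjusted p under 0.05 when either was left out. The count was 1 without astrocyte Sema4B-/- library 8 or 12, astrocyte Sema4B+/- library 6, or immune Sema4B-/- library 7 or 11. The 24 nuclear genes of the respiratory chain had 23 positive differences and a median of only 0.12, with 0 genes at an unadjusted p under 0.05, and that median turned to -0.082 without scaling factors and to -0.0096 without astrocyte Sema4B+/- library 4.

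Markers of microglia, the resident macrophages of the brain, were positive in 15 of 15, 2 of them at an unadjusted p under 0.05, and the median was 0.80. The immune effect carried most of it, with medians of 0.16 in the astrocyte and -0.67 in the immune fraction. Summed over the list, immune Sema4B-/- libraries held 8607 to 12059 CPM, all below the 13631 to 15992 CPM of immune Sema4B+/- libraries. Astrocyte libraries overlapped, at 1200 to 1767 CPM in Sema4B-/- and 1257 to 1690 CPM in Sema4B+/-. In bulk libraries, fewer cells of a type and less RNA per cell cannot be told apart. Trem2, a lipid-sensing receptor, had 172, 214 and 163 CPM in immune Sema4B-/- libraries, against 301, 238 and 265 CPM in immune Sema4B+/- libraries, and differed by 0.86 ± 0.36 with overlapping astrocyte levels of 7.58 to 16.9 CPM in Sema4B-/- and 9.74 to 13.4 CPM in Sema4B+/- libraries. Sall1, the transcription factor that keeps microglial identity, differed by 0.95 ± 0.43. Its level was not confined to the immune fraction. It averaged 106 CPM in astrocyte Sema4B-/- and 93.5 CPM in astrocyte Sema4B+/- libraries, against 111 CPM in immune Sema4B-/- and 189 CPM in immune Sema4B+/- libraries. All 15 stayed positive with any 1 library left out, while the median was 0.50 without astrocyte Sema4B+/- library 4. The count of 2 became 12 without astrocyte Sema4B-/- library 10, 6 without astrocyte Sema4B+/- library 6 or immune Sema4B+/- library 3, 3 without immune Sema4B-/- library 9, and 0 or 1 without each other library.

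Lists of other myeloid cells leaned the same way. So did genes at least 4-fold higher in the immune libraries as a whole, of which 88.1% were positive, with a median of 0.50. Monocyte markers were positive in 13 of 14 (1 at an unadjusted p under 0.05, median 0.82), border macrophage markers in 11 of 12 (2 genes, median 0.76), and neutrophil markers in 15 of 16 tested of 17 listed (0 genes, median 0.47). MHC class II genes, which present antigen, were positive in 10 of 12 (1 gene, median 0.73), and disease-associated microglia genes in 22 of 25 (3 genes, median 0.50). Maf, a transcription factor of macrophages, had 109, 129 and 67.1 CPM in immune Sema4B-/- libraries, all below the 190, 156 and 176 CPM of immune Sema4B+/- libraries. Its astrocyte levels were 15.9, 9.97 and 17.3 CPM in Sema4B-/- libraries and 12.6, 12.2 and 11.6 CPM in Sema4B+/- libraries, which overlapped, and the difference was 1.02 ± 0.33. Many of these genes were scarce in the astrocyte fraction: 9 of 14 monocyte, 10 of 12 border macrophage and 8 of 16 neutrophil markers averaged under 1 CPM in an astrocyte group. So did 6 of 12 MHC class II genes and 1 of 25 disease-associated genes. With the filter applied in each fraction, 8 monocyte, 4 border macrophage, 11 neutrophil, 9 MHC class II and 24 disease-associated genes remained. Of these, 1, 1, 0, 1 and 2 genes were positive at an unadjusted p under 0.05, and each median stayed positive. With any 1 library left out, the medians stayed positive, from 0.43 to 1.36, 0.45 to 0.94, 0.21 to 0.86, 0.38 to 0.89 and 0.21 to 0.68 in the order given. The monocyte median was 0.43 without immune Sema4B+/- library 5 and 1.36 without immune Sema4B-/- library 9. Without astrocyte Sema4B+/- library 4, the border macrophage median was 0.45, the MHC class II median 0.38 and the disease-associated median 0.29. The neutrophil median was 0.21 without immune Sema4B-/- library 11, and the disease-associated median 0.21 without immune Sema4B+/- library 1. Counts of positive genes at an unadjusted p under 0.05 moved as well. With any 1 library left out, they ran from 0 to 4 for monocyte, 1 to 4 for border macrophage, 0 to 4 for neutrophil, 0 to 5 for MHC class II and 0 to 6 for disease-associated genes. Without immune Sema4B-/- library 9 the monocyte count was 4 and the disease-associated count 6, without immune Sema4B+/- library 3 the neutrophil count was 4, and without astrocyte Sema4B-/- library 10 the MHC class II count was 5. Without astrocyte Sema4B-/- library 12 the monocyte, MHC class II and disease-associated counts were 0.

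Inflammatory effector genes had smaller medians. Cytokines and chemokines were positive in 21 of 25 tested of 26 listed, with 0 genes at an unadjusted p under 0.05 in either direction and a median of 0.36 that turned to -0.024 without immune Sema4B+/- library 1. NF-kappaB target and feedback genes were positive in 19 of 24, again with 0 genes at that p, and had a median of 0.28. That median was 0.063 without immune Sema4B+/- library 1, 0.11 without astrocyte Sema4B+/- library 4, 0.15 without immune Sema4B-/- library 11 and 0.078 without scaling factors. Nfkbia, the feedback inhibitor of NF-kappaB, had 485, 1299.7 and 369 CPM in immune Sema4B-/- libraries, against 1562.5, 1098.5 and 1650.4 CPM in immune Sema4B+/- libraries. Library 9 was the high one of the immune Sema4B-/- group, and the difference was 0.96 ± 0.52. Both fractions had a median effect below zero in these lists, -0.20 in the astrocyte and -0.52 in the immune fraction for cytokines, and -0.19 in the astrocyte and -0.42 in the immune fraction for NF-kappaB genes.

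Genes of synapses and ion channels leaned to negative differences. All 30 differences were below zero, 14 at an unadjusted p under 0.05, with a median of -0.78 from -0.09 in the astrocyte and 0.67 in the immune fraction. Tenm4, a teneurin that links cells across synapses, had 48.8, 35.8 and 40.9 CPM in immune Sema4B-/- libraries, all above the 21.3, 14.2 and 21.6 CPM of immune Sema4B+/- libraries. Its astrocyte levels overlapped, at 18.2, 36.1 and 20.6 CPM in Sema4B-/- libraries and 20.7, 23.2 and 29.9 CPM in Sema4B+/- libraries, and the difference was -1.11 ± 0.36. Markers of neurons were negative in 16 of 16, 4 at an unadjusted p under 0.05, with a median of -0.62. Syt1, the calcium sensor of synaptic vesicles, had 789, 388 and 555 CPM in immune Sema4B-/- libraries, against 256, 345 and 273 CPM in immune Sema4B+/- libraries. In the astrocyte fraction it had 227, 523 and 183 CPM in Sema4B-/- libraries, against 293, 445 and 348 CPM in Sema4B+/- libraries, and the difference was -1.20 ± 0.50. Summed neuron markers were 5845 to 10750 CPM in immune Sema4B-/- libraries and 3114 to 5807 CPM in immune Sema4B+/- libraries, and 2303 to 4732 CPM in astrocyte Sema4B-/- and 2809 to 3872 CPM in astrocyte Sema4B+/- libraries. How far neuronal RNA in the immune fraction enters the other negative differences was not tested. The synaptic count was 9 without astrocyte Sema4B-/- library 8 and 6 without immune Sema4B-/- library 7, and ran from 10 to 21 without each other library. The neuron count ran from 1 to 8. It was 1 without astrocyte Sema4B-/- library 8 or 12, immune Sema4B-/- library 7 or immune Sema4B+/- library 1, 2 without astrocyte Sema4B+/- library 6 or immune Sema4B+/- library 5, and 8 without astrocyte Sema4B-/- library 10 or immune Sema4B+/- library 3. The median of the neuron list was -0.25 without immune Sema4B-/- library 11.

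Semaphorins, plexins and their other receptors and co-receptors, the family of the targeted gene, were negative in 24 of 32 genes other than Sema4b. At an unadjusted p under 0.05, 8 were negative and 0 positive. The median was -0.59, from -0.15 in the astrocyte and 0.42 in the immune fraction. Plxna2, a plexin A receptor, had 53.3, 59.8 and 49.2 CPM in astrocyte Sema4B-/- libraries, all below the 61.4, 84.0 and 60.4 CPM of astrocyte Sema4B+/- libraries. It had 77.8, 43.2 and 42.1 CPM in immune Sema4B-/- libraries, all above the 24.3, 35.6 and 22.8 CPM of immune Sema4B+/- libraries, and the difference was -1.32 ± 0.35. Plxna1 differed by -0.76 ± 0.21 with overlap in the astrocyte fraction only. The list median lay between -0.72 and -0.39 with any 1 library left out, and 7 to 12 genes were then negative at that p.

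Genes of vessel walls had the most negative medians, and these depended on single libraries. Mural markers were negative in 10 of 10, 6 at an unadjusted p under 0.05, with a median of -2.02 from -0.49 in the astrocyte and 1.48 in the immune fraction. Abcc9, a potassium channel subunit of pericytes, had 4.49, 13.3 and 0.812 CPM in immune Sema4B-/- libraries, against 0.899, 0.866 and 0.850 CPM in immune Sema4B+/- libraries. Its astrocyte levels were 63.8, 44.2 and 52.5 CPM in Sema4B-/- libraries and 96.8, 63.4 and 97.6 CPM in Sema4B+/- libraries, and the difference was -3.48 ± 0.90. One immune Sema4B-/- library was below all immune Sema4B+/- libraries, so the genotypes overlapped there. Without immune Sema4B-/- library 9 the mural median was -0.91 with 1 gene at an unadjusted p under 0.05. The count was 3 without astrocyte Sema4B-/- library 10 or 12, astrocyte Sema4B+/- library 2 or 6 or immune Sema4B+/- library 1, and 10 without immune Sema4B-/- library 11. Endothelial markers were negative in 12 of 12 with a median of -1.17 and 0 genes at that p. Their median was -0.32 without immune Sema4B-/- library 9 and -0.28 without astrocyte Sema4B+/- library 6, where 4 genes turned positive. At an unadjusted p under 0.05, 4 endothelial genes were negative without astrocyte Sema4B+/- library 4 and 5 without immune Sema4B-/- library 11.

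Extracellular matrix genes were negative in 24 of 28, 9 at an unadjusted p under 0.05 against 1 positive, with a median of -0.76. Col4a2, a collagen of the basement membrane, had 42.9, 60.7 and 20.8 CPM in immune Sema4B-/- libraries, against 17.3, 26.4 and 21.3 CPM in immune Sema4B+/- libraries. In the astrocyte fraction it had 126, 98.9 and 89.9 CPM in Sema4B-/- libraries, against 153, 124 and 172 CPM in Sema4B+/- libraries. Both fractions overlapped, immune library 9 was the highest of its group, and the difference was -1.44 ± 0.43. Lamb1, a laminin chain, differed by -1.55 ± 0.47. The positive gene was Vcan, a matrix proteoglycan also listed as a monocyte marker, at 1.01 ± 0.41. The median of the matrix list was -0.45 without immune Sema4B-/- library 9, and the count of negative genes was 18 without immune Sema4B-/- library 11.

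Markers of astrocytes differed little, with 16 of 18 negative, 0 genes at an unadjusted p under 0.05 and a median of -0.22. Without immune Sema4B-/- library 9 the median was 0.11, and without immune Sema4B-/- library 11 it was -0.55 with 9 negative genes at that p. For genes of astrocyte reactivity the difference had no common direction. It was negative in 8 of 13 pan-reactive, 6 of 11 tested A1 and 5 of 12 A2 genes, with medians of -0.068, -0.10 and 0.094. The sign of each of these medians changed when a single library was left out. At an unadjusted p under 0.05, 2 pan-reactive genes were negative and 1 A2 gene was positive. The astrocyte effect itself was below zero in 11, 10 and 11 of these genes, against 8701 of 16880 genes tested, with medians of -0.25, -0.16 and -0.34. The immune effect was below zero in 7, 7 and 11 genes, against 9384 of all tested, with medians of -0.20, -0.15 and -0.40. S1pr3, a sphingosine phosphate receptor among the pan-reactive genes, had 73.4, 53.7 and 54.6 CPM in astrocyte Sema4B-/- libraries, against 93.4, 54.0 and 93.0 CPM in astrocyte Sema4B+/- libraries. It had 9.58, 21.8 and 4.82 CPM in immune Sema4B-/- libraries, against 3.84, 8.37 and 4.93 CPM in immune Sema4B+/- libraries, and differed by -1.46 ± 0.61 with overlap in both fractions.

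Cholesterol synthesis genes were negative in 19 of 22 with a median of -0.16. Glycolysis and hypoxia genes were positive in 16 of 25, with 2 positive genes and 1 negative gene at an unadjusted p under 0.05. These counts lay near the shares over all genes tested, 53.5% positive, and 4.06% positive and 6.32% negative at that p. The median of the list was 0.12 and turned to -0.076 without scaling factors. It was 0.010 without immune Sema4B+/- library 1, 0.049 without astrocyte Sema4B+/- library 4, 0.077 without astrocyte Sema4B+/- library 6, 0.050 without immune Sema4B-/- library 7, 0.069 without immune Sema4B-/- library 11 and 0.24 without immune Sema4B-/- library 9. Hk2, the hexokinase that starts glycolysis in activated cells, had 144, 182 and 100 CPM in immune Sema4B-/- libraries, all below the 272, 223 and 280 CPM of immune Sema4B+/- libraries, and differed by 0.89 ± 0.34. Interferon-stimulated genes (13 of 20 positive, median 0.093) and cell cycle genes (10 of 17 tested positive, median 0.14) had 0 genes at an unadjusted p under 0.05, and both medians changed sign under other settings. So did those of lymphocyte (5 of 11 tested positive, median -0.015), oligodendrocyte (3 of 12, -0.14), oligodendrocyte precursor (6 of 10, 0.045) and red blood cell markers (0 of 5, -0.44), none of which had a gene at that p.

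**Figure D4:**
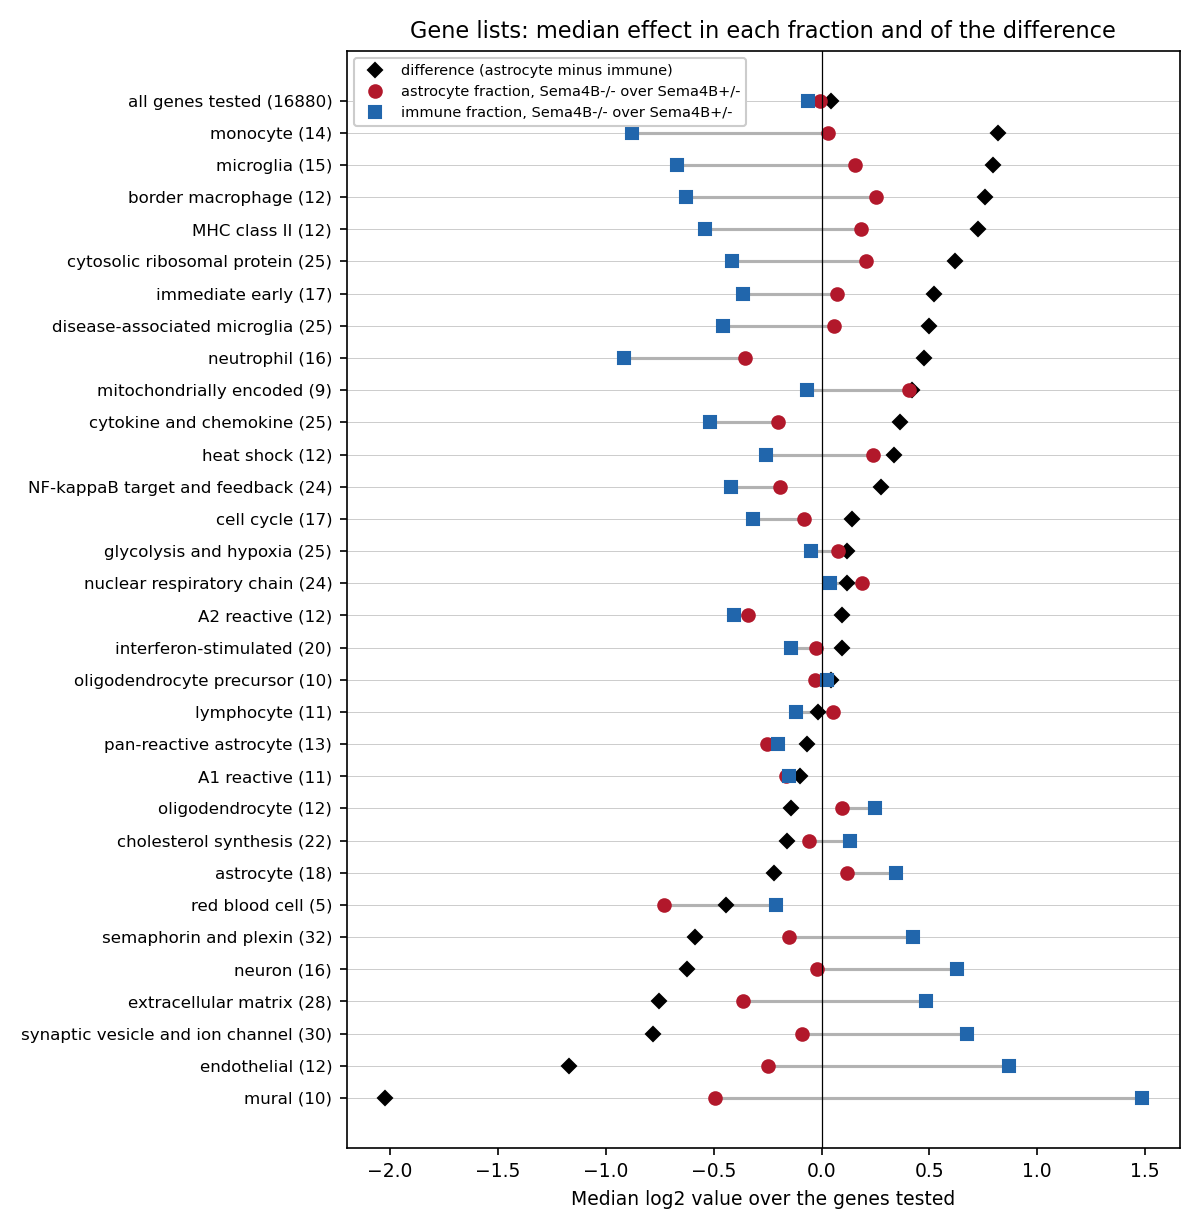
For each of 31 gene lists, with the number of genes tested in brackets, the median log2 effect of Sema4B-/- over Sema4B+/- in the astrocyte fraction (circles) and in the immune fraction (squares) and the median difference (diamonds). Medians of the difference run from -2.02 for mural markers to 0.82 for monocyte markers, and in both of those lists the immune square lies farther from zero than the astrocyte circle.

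Differences were also split by the fraction in which a gene was mainly expressed. Of 1473 genes at least 4-fold higher in the astrocyte libraries, 28.8% had a positive difference, with a median of -0.30 and with 27 positive and 163 negative genes at an unadjusted p under 0.05. Of 1037 genes at least 4-fold higher in the immune libraries, 88.1% had a positive difference, with a median of 0.50 and with 116 positive and 8 negative genes at that p. Genes mainly in the astrocyte fraction had a median effect of 0.0057 in the astrocyte and 0.31 in the immune fraction, and genes mainly in the immune fraction -0.064 in the astrocyte and -0.56 in the immune fraction. In the astrocyte-high set, 410 genes averaged under 1 CPM in an immune group, and in the immune-high set 344 genes averaged under 1 CPM in an astrocyte group. These passed the joint filter through the fraction where they were high. Among genes averaging at least 1 CPM in each fraction, a limit chosen after the values were seen, the 1119 astrocyte-high genes had a median difference of -0.30 with 20 positive and 137 negative genes at that p. The 715 immune-high genes had a median of 0.49 with 91 positive and 6 negative genes. The 14370 genes within 4-fold had a median difference of 0.040, with 543 positive and 896 negative genes.

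Gene length moved with the difference. In 5 groups of equal size by exonic length, over 16862 genes with an annotated length, the median difference was 0.18 in the shortest group (up to 2.16 kb) and -0.085 in the longest (from 7.22 kb). Genes positive at an unadjusted p under 0.05 made up 6.01% of the shortest and 1.99% of the longest group, and negative genes 1.93% and 13.3%. The median astrocyte effect was 0.10 in the shortest and -0.10 in the longest group, and the median immune effect was -0.097 and -0.025. Among genes within 4-fold between fractions, the median difference was 0.16 in the shortest and -0.076 in the longest group. Over 3973 genes with at least 5 CPM in every group, the mean log2 CPM of the longest minus the shortest genes was 0.32, 0.34 and 0.34 in astrocyte Sema4B-/- libraries, against 0.43, 0.74 and 0.51 in astrocyte Sema4B+/- libraries. It was 0.73, 0.14 and 0.050 in immune Sema4B-/- libraries, against 0.27, 0.20 and 0.096 in immune Sema4B+/- libraries. The genotypes did not overlap in the astrocyte fraction and did in the immune fraction. Ribosomal protein transcripts are short and ion channel transcripts are long. Of the negative genes named for their low p, Fry (29.7 kb), Cacna1c (21.2 kb), Slc4a8, Ablim1, Celsr2, Apc2, Arhgef17 and Galnt17 (9.41 kb) were in the longest group. Il34 (1.96 kb), Mir124a-1hg (4.80 kb) and Aff3 (6.65 kb) were not. The longest positive gene named for its low p was Rab3il1 at 7.01 kb. Plxna2 (17.2 kb) and Plxna1 (9.05 kb) were in the longest group as well. The part of length in the differences of these genes and lists was not tested.

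**Figure D5:**
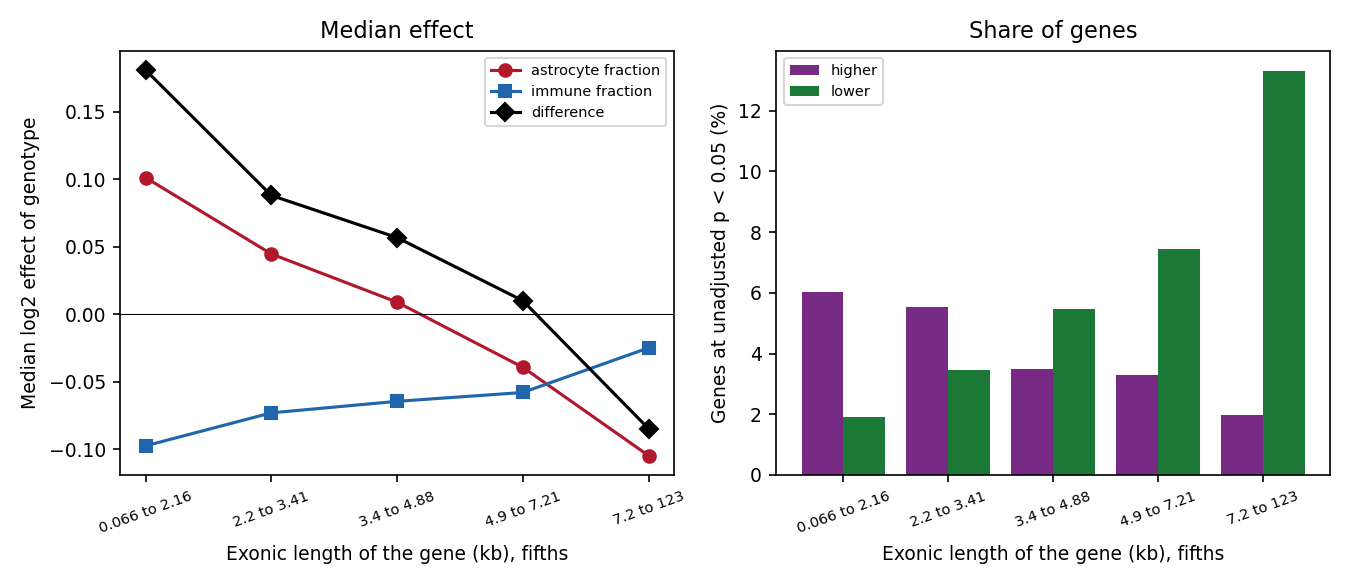
Left, median log2 effect of Sema4B-/- over Sema4B+/- in the astrocyte fraction and in the immune fraction, and their difference, for 5 groups of genes by exonic length (kb); right, the percentage of each group with a positive or negative difference at an unadjusted p under 0.05. The median difference goes down with length, to -0.085 in the longest genes, where 13.3% of genes were negative at that p.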

How the data were processed

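RNA-seq was done on 12 libraries of total RNA, 3 per group. Per the submitters' processing notes, cutadapt, STAR, HTSeq and DESeq2 were used on GRCm38; versions and annotation are not given in the sources used here. The deposited tables hold raw counts per gene, made by the authors, next to normalized values (12 columns) that were not used. Columns were assigned to groups by their heads, and library numbers are those of the heads, which run differently from the numbers in the sample titles. Symbols were those deposited with the counts, and positions came from GENCODE M21, where 20747 of 20776 identifiers matched. Among the identifiers, 51 share a symbol.

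The 12 count columns were joined and fitted together with edgeR 4.0.16 in R 4.3.3 (TMM scaling, filterByExpr with minimum counts of 10 and 15, robust quasi-likelihood, 4 group means, two-sided, Benjamini-Hochberg over 16880 genes, threshold 0.05). Gene levels are scaled CPM; summed marker levels are unscaled. Standard errors were derived from the log2 value and the F statistic of each quasi-likelihood test. A level of 0 would allow up to 3 reads, and this floor covers counting error only. DESeq2 1.42.0, limma 3.58.1 and sva 3.50.0 gave alternatives. The procedure was tested on simulated counts, with known differences placed in well-expressed genes. Each gene had the same spread in all groups, so that test did not cover the wider spread of the immune libraries. Counts are limited by 3 libraries per group.

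The contrast and the gene lists were chosen with earlier results of these data known. Genes named are Sema4b, the 12 with the lowest p in each direction at 5 CPM or more, up to 6 with opposite effects in each pattern, and 2 per list. One gene chosen by this rule is not reported here.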

Additional observations from a re-analysis of the deposited data

How the results depend on the processing

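No gene passed an adjusted p of 0.05 in edgeR under any scaling, filter, covariate or left-out library, nor in limma-voom. With all 12 libraries, a threshold of 0.1 added none in edgeR. DESeq2 called 3 genes, all negative, with differences of -1.13 (Fry), -1.10 (Il34) and -1.51 (Cacna1c). Without scaling factors the median of all genes shifted from 0.042 to -0.16, and 200 genes were positive and 1762 negative at an unadjusted p under 0.05, so that 10.2% of these calls were positive against 39.1% with TMM. Leaving out each library in turn gave 269 to 1081 positive and 702 to 1591 negative genes at that p, and a lowest adjusted p of 0.0714 (without astrocyte Sema4B-/- library 10) to 0.777 in edgeR; it was 0.0720 without immune Sema4B-/- library 11. Positive genes numbered 379 without astrocyte Sema4B-/- library 8, 368 without astrocyte Sema4B-/- library 12, 269 without astrocyte Sema4B+/- library 4, 319 without immune Sema4B+/- library 1 and 1081 without immune Sema4B+/- library 3; negative genes numbered 702 without astrocyte Sema4B-/- library 8. A Y-linked score as covariate gave 1027 positive and 1176 negative genes. With 1 surrogate variable, a hidden factor estimated from the counts, these counts were 745 and 1189. That variable was 0.47 in astrocyte Sema4B+/- library 4 and 0.48 in immune libraries 11 (Sema4B-/-) and 3 (Sema4B+/-). In every other library it was 0.021 or lower. Of the values of 87 named genes under 24 settings, 7 changed sign: Trbc2 (-0.36 to 0.77 with any 1 library left out) to -0.035 without astrocyte Sema4B+/- library 4, -0.17 without immune Sema4B-/- library 7 and -0.36 without immune Sema4B+/- library 5; Cldn11 (-0.98 to 0.12) to 0.12 without astrocyte Sema4B+/- library 6; Hbb-bt (-1.17 to 0.36) to 0.36 and Hba-a1 (-1.01 to 0.41) to 0.41 without immune Sema4B-/- library 9; and Hba-a1 to 0.020 in limma-voom. Medians of 18 of 31 lists kept their sign under every setting. The cause of these shifts was not tested. No paired analysis was possible because neither the labels nor the column heads give a replicate number shared between groups. The presence of Xist and Y-linked transcripts (each at 10 CPM or more) matched between neighbouring column numbers of the fractions in 1 of 3 pairs for Sema4B-/- and 3 of 3 pairs for Sema4B+/-; whether neighbours share animals is not stated.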

Other observations

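The genotype effects in the fractions showed no relation across genes as a description, with a Spearman rho of -0.019 and a Pearson r of 0.0096 over 16880 genes, which share their libraries and are not independent replicates. GC content of the transcript moved little with the difference (Spearman rho -0.035 over 16856 genes).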
